A study of Mus musculus with 6 samples.

Results

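The 10 genes described here encode growth factor receptors, growth factors and feedback inhibitors that act on satellite cells, the stem cells of skeletal muscle. The receptors are Fgfr1, Fgfr4, Met and Egfr, the ligands Fgf2 and Hgf, and the inhibitors Spry1, Spry2, Spry4 and Spred1. They were taken by symbol from the deposited table of 24980 genes, and 10 of 10 were found there. The set was chosen with earlier results of these data known. In short, Fgfr1, Fgfr4, Spry2 and Spry1 were the most abundant of the 10 transcripts and Hgf was close to 0. No gene of the set passed the adjusted test between genotypes. Egfr came nearest, with every KO library above every WT library.

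Fibroblast growth factors bind receptor tyrosine kinases together with heparan sulfate, and hepatocyte growth factor binds the kinase Met. Both kinds of receptor signal through the RAS and ERK kinases, and both can bring quiescent satellite cells into the cell cycle. Sprouty and Spred proteins are induced by this signal and dampen it. In the mouse Spry1 is needed for dividing satellite cells to return to quiescence.

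Both groups were adult C57BL6/J mice whose Cre was induced with tamoxifen (10 mg in total), KO and WT alike, and hindlimb satellite cells were sorted by flow cytometry. The groups are 3 libraries labelled scERα KO, here KO, and 3 labelled scERα WT, here WT. By its label the KO targets ERα, the estrogen receptor encoded by Esr1. The Cre driver, the allele and its deleted part, and whether a library is 1 mouse or a pool are not given in the labels. The p-values therefore measure spread between libraries, which may be technical.

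The values were TPM, a relative abundance scaled for transcript length, so levels of different genes can be set side by side. The listed TPM summed to between 295306 and 321771 in KO libraries and between 317924 and 334382 in WT libraries, and the sequencing depth is unknown. Protein-coding genes (RefSeq biotype) held between 32.3% and 33.6% of that sum in KO libraries and between 31.9% and 35.7% in WT libraries. A TPM here is therefore not on the scale of a table of protein-coding genes alone. Esr1 held 2.92, 3.69 and 3.87 TPM in KO libraries, against 7.53, 6.96 and 6.94 TPM in WT libraries. The KO mean was 48.9% of the WT mean (log2 difference -0.86, limma adjusted p = 0.0925), and whether the reads cover the deleted part is unknown. Of 10 satellite cell markers 10 were tested, and 0 passed the adjusted limma threshold. In 4 of them, Vcam1, Cdh15, Cd34 and Itgb1, every KO value exceeded every WT value, against 13.5% of all genes tested. The reverse order was seen in 0 of the 10, against 3.07% of all genes tested. At an unadjusted limma p under 0.05, 2 were higher in KO, against 7.89% of all genes tested, and 0 lower, against 2.66%. The groups of Pax7, the transcription factor that defines these cells, overlapped. It lay between 17.9 and 32.8 TPM in KO libraries and between 23.0 and 25.4 TPM in WT libraries. The leukocyte marker Ptprc was at most 0.17 TPM in KO libraries and 0.29 TPM in WT libraries. Others were higher: Lyz2 reached 3.38 TPM in KO and 4.88 TPM in WT libraries, and Cd68 2.99 TPM in KO and 2.46 TPM in WT libraries. The 10 leukocyte markers summed to between 4.59 and 7.88 TPM in KO libraries and between 2.85 and 9.23 TPM in WT libraries.

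Promoter sequence was at hand for 8 of the 10 genes (RefSeq, GRCm38.p6). Spry1 and Hgf are shown because they stand far apart in level, and the 250 bases before each start are given from 5′ to 3′ on the gene's strand with CG dinucleotides in capitals. Spry1 at chr3:37639697-37639946 (plus strand) has 23 CG dinucleotides, and Hgf at chr5:16553245-16553494 (plus strand) has 4. Over 32851 such windows the median was 6. The count did not follow level across the set: Fgf2, a scarce transcript, has 20, while Fgfr4, above Spry1 in level, has 15 and Egfr has 11.
Spry1: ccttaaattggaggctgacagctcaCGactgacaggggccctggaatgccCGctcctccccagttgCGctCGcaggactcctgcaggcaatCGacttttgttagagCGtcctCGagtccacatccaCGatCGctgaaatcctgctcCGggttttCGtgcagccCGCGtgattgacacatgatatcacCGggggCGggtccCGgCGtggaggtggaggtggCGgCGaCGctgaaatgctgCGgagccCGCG
Hgf: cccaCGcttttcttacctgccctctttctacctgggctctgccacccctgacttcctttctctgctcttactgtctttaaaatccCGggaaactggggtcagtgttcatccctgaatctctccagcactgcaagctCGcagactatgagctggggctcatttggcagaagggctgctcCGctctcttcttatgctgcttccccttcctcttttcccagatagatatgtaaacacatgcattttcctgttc

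Windows from 250 bases before to 50 after each start were searched on both strands for the estrogen response element GGTCANNNTGACC, its half-site AGGTCA, and the ETS core CCGGAA. ETS factors are transcription factors that ERK can phosphorylate. The palindrome was in 0 of the 9 windows of these genes, and in 0.0700% of all windows. The half-site was in the Spry2 window alone, 22 bases after the start, against 16.3% of all windows. The ETS core was in the windows of Egfr, Fgfr4 and Spry2, against 14.9% of all windows. Egfr is shown, as the gene nearest to a difference between genotypes, at chr11:16751953-16752202 (plus strand, same RefSeq build), with the ETS core in capitals as it reads on the other strand, 119 bases before the start.
Egfr: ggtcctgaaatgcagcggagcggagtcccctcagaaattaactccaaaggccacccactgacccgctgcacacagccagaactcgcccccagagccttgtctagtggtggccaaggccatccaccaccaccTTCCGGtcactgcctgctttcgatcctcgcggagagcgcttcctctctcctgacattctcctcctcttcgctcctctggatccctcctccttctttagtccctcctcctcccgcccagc
A match of letters is a description and not a binding site.

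Fgfr1 was the most abundant of the 10 transcripts. This gene of the main FGF receptor of satellite cells lies on chromosome 8 at 25513654 to 25575718 (GENCODE vM21 on GRCm38, as are the positions below). It held 60.9, 60.7 and 50.4 TPM in KO libraries, against 56.9, 64.7 and 45.8 TPM in WT libraries. The ranges overlapped almost entirely, and WT library 3 was the lowest of the 6. The means were 57.3 ± 5.99 TPM in KO and 55.8 ± 9.51 TPM in WT (SD, n = 3 each). An antisense gene, Gm16159, overlaps 7423 bp of Fgfr1 and was listed at between 10.3 and 12.4 TPM in KO libraries and between 5.48 and 10.7 TPM in WT libraries. The sources used here do not state strandedness, so reads of overlapping genes cannot be told apart.

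Fgfr4, the other FGF receptor of the muscle lineage, lies on chromosome 13 at 55152640 to 55168759. It held 33.7, 39.2 and 38.6 TPM in KO libraries, against 32.7, 37.8 and 32.5 TPM in WT libraries. Fgfr1 was above Fgfr4 in 6 of 6 libraries, with no overlap of their ranges. Within a library the ratio of Fgfr1 to Fgfr4 averaged 1.56 ± 0.251 in KO and 1.62 ± 0.182 in WT (SD, n = 3 each). The 2 genes together made up between 98.9% and 99.6% of the summed TPM of Fgfr1, Fgfr2, Fgfr3 and Fgfr4. Fgfr2 was at most 0.36 TPM in KO libraries and 0.08 TPM in WT libraries, and Fgfr3 at most 0.76 TPM in KO libraries and 0.48 TPM in WT libraries.

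Met, the receptor of hepatocyte growth factor (chromosome 6, 17463800 to 17573980), was lower than both FGF receptors in 6 of 6 libraries. It held 6.97, 5.87 and 5.70 TPM in KO libraries, against 5.98, 5.94 and 4.36 TPM in WT libraries. The groups overlapped, with KO library 1 highest and WT library 3 lowest.

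Egfr, the receptor of epidermal growth factor and related ligands, lies on chromosome 11 at 16752203 to 16918158. It held 17.7, 21.4 and 15.5 TPM in KO libraries, against 11.1, 15.0 and 13.5 TPM in WT libraries. All 3 KO libraries lay above all 3 WT libraries, although the lowest KO library and the highest WT library were close. The means were 18.2 ± 3.0 TPM in KO and 13.2 ± 2.0 TPM in WT (SD, n = 3 each), a ratio of 1.38.

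The ligands were scarce. Hgf, the ligand of Met (chromosome 5, 16553495 to 16620152), was listed at 0.10, 0.02 and 0.08 TPM in KO libraries, against 0.07, 0.13 and 0.07 TPM in WT libraries. No library exceeded 0.13 TPM, and at such values no order between the genotypes can be read. Fgf2, a basic fibroblast growth factor (chromosome 3, 37348346 to 37410108), held 0.92, 1.18 and 0.78 TPM in KO libraries, against 0.97, 0.67 and 0.73 TPM in WT libraries. Its groups overlapped. Nudt6, on the other strand, overlaps 5199 bp at the end of Fgf2 and held between 1.5 and 1.8 TPM in KO libraries and between 1.06 and 1.42 TPM in WT libraries.

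Of the feedback inhibitors, Spry2 (chromosome 14, 105891947 to 105896819) and Spry1 (chromosome 3, 37639947 to 37644598) were at similar levels. Spry2 held 32.8, 23.2 and 20.9 TPM in KO libraries, against 24.9, 27.1 and 21.4 TPM in WT libraries. Spry1 held 15.3, 31.2 and 25.1 TPM in KO libraries, against 18.7, 21.0 and 18.6 TPM in WT libraries. For both genes the KO libraries included the highest and the lowest of the 6 values. Which of the 2 genes was higher also differed between the KO libraries, with Spry2 above Spry1 in KO library 1 and below it in KO libraries 2 and 3.

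Spry4 (chromosome 18, 38586247 to 38601415) was the lowest of the 3 Sprouty genes described. It held 5.38, 6.49 and 4.81 TPM in KO libraries, against 5.27, 5.73 and 5.12 TPM in WT libraries. Spred1, a membrane-bound inhibitor that acts on RAS together with neurofibromin, lies on chromosome 2 at 117121374 to 117182279. It held 13.8, 13.3 and 11.3 TPM in KO libraries, against 13.8, 13.6 and 11.3 TPM in WT libraries. The values of Spred1 were the most alike between genotypes, with a ratio of means of 0.991.

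By mean TPM over 6 libraries the order was Fgfr1, Fgfr4, Spry2, Spry1, Egfr, Spred1, Met, Spry4, Fgf2 and Hgf. Ranges over the 6 libraries overlapped between Fgfr4 and Spry2, Spry2 and Spry1, Spry1 and Egfr, Egfr and Spred1, and Met and Spry4. Between the other neighbours they did not. Fgfr1 stood above 96.4% of the 8971 genes tested, and Spry4 above 68.8%.

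**Figure D1:**
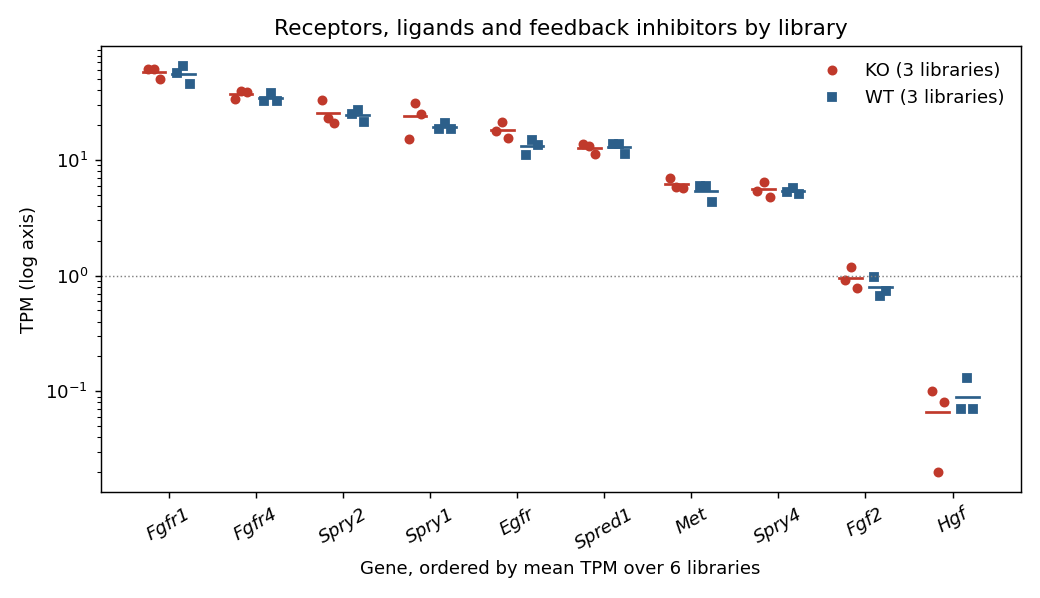
TPM on a log axis for the 10 genes, ordered by mean level, with red circles for the 3 KO libraries, blue squares for the 3 WT libraries and bars at group means; the dotted line marks 1 TPM. Fgfr1 lies between 45.8 and 64.7 TPM and Hgf between 0.02 and 0.13 TPM, and only Egfr shows every KO library above every WT library.

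The comparison of KO with WT asks whether these transcripts differ when the receptor gene is targeted. Differences were taken on log2(TPM + 1), a scale that understates changes of low genes, and tested with limma over the 8971 genes that reached 1 TPM in 3 or more libraries. Of the 10 genes 8 passed that filter and Fgf2 and Hgf did not. At a Benjamini-Hochberg adjusted p under 0.05, 0 of the 8 were higher and 0 were lower in KO by limma. Over all genes tested the same rule called 0.0334% higher and 0.0223% lower.

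At an unadjusted limma p under 0.05, 1 of the 8 was higher in KO, against 7.89% of all genes tested, and 0 were lower, against 2.66%. That gene was Egfr, which was also the 1 of 8 with all KO libraries above all WT libraries, against 13.5% of all genes tested. None of the 8 had all KO libraries below all WT libraries, against 3.07%. The median difference of the 8 genes was 0.08, and that of all genes tested was 0.12. With median-of-ratios factors these became -0.07 for the 8 genes and 0.01 for all genes tested.

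For Egfr the log2 difference was 0.43 (SE 0.17), with a 95% interval of 0.05 to 0.82 and a limma adjusted p of 0.403. An exact two-sided permutation test of Egfr gave p = 0.1, the smallest that 3 against 3 libraries can give. Its unadjusted limma p was 0.032, and it was 0.122 without KO library 2 and 0.133 without WT library 1. In Spry1 the difference was 0.23 (SE 0.24), with an interval of -0.31 to 0.77, the widest of the 8. Met differed by 0.17 (interval -0.18 to 0.51) and Fgfr4 by 0.11 (interval -0.20 to 0.42).

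The remaining 4 genes had differences within 0.05 of 0 on the log2 scale. Fgfr1 differed by 0.05 (interval -0.34 to 0.43), Spry2 by 0.04 (interval -0.39 to 0.48) and Spry4 by 0.03 (interval -0.28 to 0.35). Spred1 differed by -0.01 (interval -0.34 to 0.32). Their limma adjusted p-values lay between 0.921 and 0.978. These intervals leave room for ratios, on this scale, between 0.764 and 1.39 for Spry2 and between 0.790 and 1.25 for Spred1, so equal levels are not shown. Fgfr1, Fgfr4, Spry2 and Spry4 changed sign under median-of-ratios scaling.

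**Figure D2:**
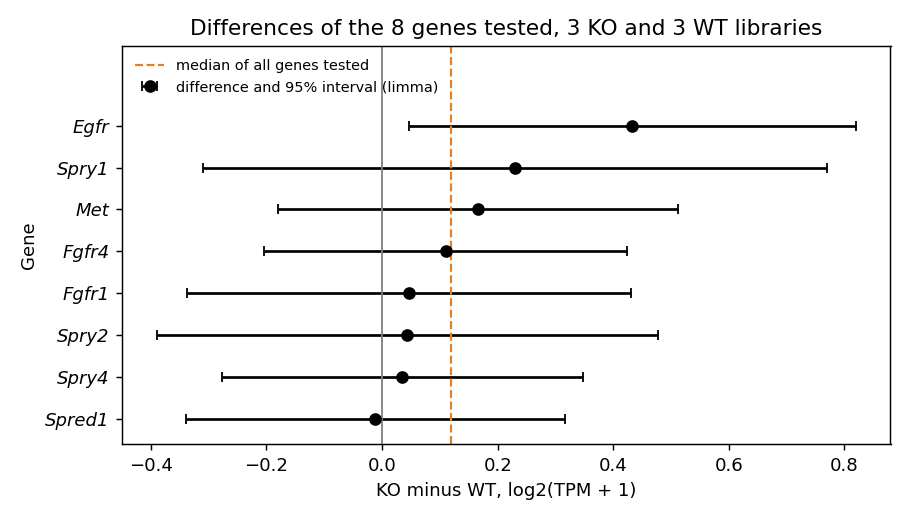
Difference KO minus WT in log2(TPM + 1) for the 8 genes tested (points) with 95% limma intervals (bars), from 3 KO and 3 WT libraries; the dashed line is the median of all genes tested, 0.12. The interval of Egfr, 0.05 to 0.82, lies above 0, and those of the other 7 genes span 0.

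Egfr was also set against markers of other cell types. In bulk samples fewer cells of a type and less RNA per cell cannot be told apart. The summed TPM of 10 fibro-adipogenic progenitor markers lay between 104.8 and 134.5 in KO libraries and between 63.9 and 164.2 in WT libraries. The highest WT sum was that of WT library 3, where Col3a1 alone held 116.6 TPM, against 40.9 and 21.8 TPM in WT libraries 1 and 2. Of the 6 markers tested 2, Cd55 and Dpt, had all KO libraries above all WT libraries, against 13.5% of all genes tested. Pdgfra, which defines these progenitors, was at most 0.20 TPM in KO libraries and 0.31 TPM in WT libraries. The 10 Schwann cell markers summed to between 9.85 and 22.6 TPM in KO libraries and between 8.87 and 10.4 TPM in WT libraries, with Gfra3 at 0 in all 6. Endothelial markers summed to between 12.8 and 27.4 TPM in KO libraries and between 13.3 and 20.2 TPM in WT libraries. Their part in the Egfr difference was not tested.

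Other genes of the EGF receptor family were low, and 3 of 14 genes in the list of ligands and receptors were tested, Egfr among them. Erbb2, the receptor that pairs with Egfr, was at most 1.03 TPM in KO libraries and 0.95 TPM in WT libraries. Hbegf, a ligand of Egfr, held 6.33, 9.15 and 5.57 TPM in KO libraries, against 5.56, 7.01 and 6.68 TPM in WT libraries. Areg, another ligand, averaged 2.77 ± 1.46 TPM in KO and 1.74 ± 1.03 TPM in WT (SD, n = 3 each), with overlapping groups. Errfi1, an induced inhibitor of Egfr, was far more abundant than the receptor, at 243.9, 214.9 and 182.9 TPM in KO libraries, against 316.2, 297.0 and 217.9 TPM in WT libraries. Its groups overlapped (log2 difference -0.36, limma adjusted p = 0.532).

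Within a library the ratio of Egfr to Fgfr1, which no scaling of the library can change, was 0.290, 0.353 and 0.308 in KO libraries, against 0.195, 0.232 and 0.295 in WT libraries. The groups overlapped by 1 library each. The exact two-sided permutation test of the log2 ratio gave p = 0.2, and the ratio was chosen after the values were seen.

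Among the 8 genes tested Spry1 varied most within KO. Its coefficient of variation was 33.6% in KO and 6.97% in WT, and that of Spry2 was 24.7% in KO and 11.8% in WT. Of the summed Sprouty TPM, Spry1 took 28.6%, 51.3% and 49.3% in KO libraries, against 38.2%, 39.0% and 41.2% in the WT libraries. Spry2 took 61.3%, 38.1% and 41.0% in KO libraries, against 50.9%, 50.3% and 47.3% in WT libraries. The sum over the Sprouty genes was 53.5, 60.9 and 50.8 TPM in KO libraries, against 48.9, 53.9 and 45.3 TPM in WT libraries. Its SD in KO, 5.20 TPM, was below those of Spry1 (8.01 TPM) and Spry2 (6.32 TPM), and its SD in WT, 4.33 TPM, was above those of Spry1 (1.35 TPM) and Spry2 (2.88 TPM).

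Without KO library 1 the Spry1 difference was 0.51 (limma adjusted p = 0.292), and without KO library 2 it was 0.02 (limma adjusted p = 0.990). The same KO library 1 had the lowest Pax7, 17.9 TPM against 32.8 and 29.5 TPM in KO libraries 2 and 3. Calcr and Cdh15 were also lowest there among KO libraries, but the satellite cell markers did not all go this way. Myf5 was 29.36 TPM in KO library 1 against 26.91 and 25.75 TPM, and Cxcr4 20.2 TPM against 18.2 and 16.7 TPM. Summed markers of other cells were lower in KO library 1 than in KO libraries 2 and 3. Muscle fibre markers summed to 8.67 TPM there, against 44.9 and 40.6 TPM, and mural cell markers to 38.5 TPM, against 58.9 and 54.5 TPM. Endothelial markers summed to 12.8 TPM, against 27.4 and 20.4 TPM. The fibro-adipogenic progenitor, Schwann cell and leukocyte sums were also lowest there among KO libraries. WT libraries had between 12.8 and 29.3 TPM of the fibre markers and between 38.7 and 39.6 TPM of the mural markers. Of the endothelial markers they had between 13.3 and 20.2 TPM. The part of these cells in the Spry1 values was not tested.

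Of the genes compared, Pax7 had the profile most like Spry1. These were 2964 genes with a mean of at least 5 TPM, with predicted genes (Gm and a number) and Rik symbols passed over. Profiles of log2(TPM + 1) over the 6 libraries were centred and compared by their root mean square difference. Pax7 differed from Spry1 by 0.08 on this measure, where the median gene differed by 0.33. The smallest of so many differences lies below their median by choice, so this gap tests nothing. Pax7 held 17.9, 32.8 and 29.5 TPM in KO libraries, against 23.0, 25.4 and 23.3 TPM in WT libraries. This puts the libraries in the order that Spry1 gives but for WT libraries 1 and 3. Next came Ramp2, Eapp, Thoc6 and Zhx2, at 0.10 to 0.12. Calcr, the calcitonin receptor of quiescent satellite cells, held 5.03, 8.03 and 6.12 TPM in KO libraries, against 5.64, 6.16 and 5.41 TPM in WT libraries. It was picked out with its values known.

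**Figure D3:**
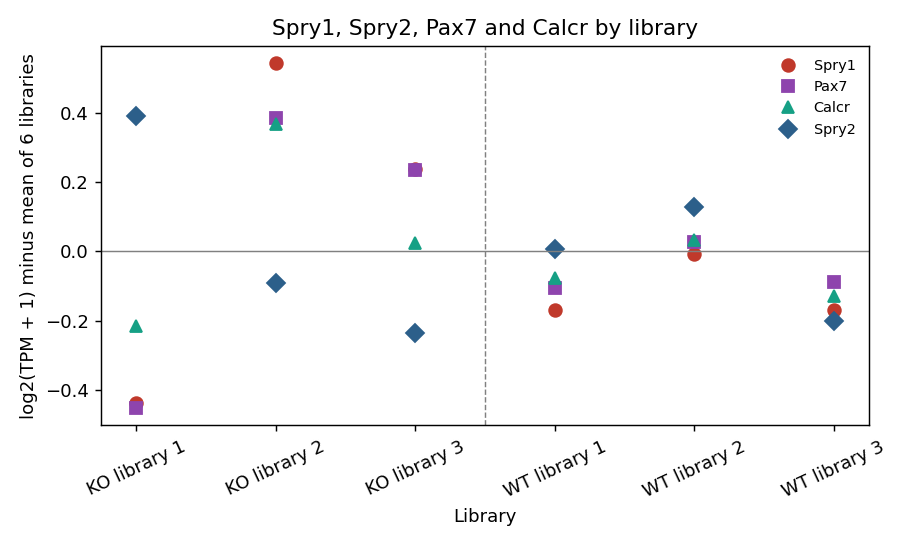
Centred log2(TPM + 1) of Spry1, Pax7, Calcr and Spry2 in each of the 3 KO libraries (left) and 3 WT libraries (right); 0 is the mean of the 6 libraries for each gene. Spry1 and Pax7 are lowest in KO library 1, at -0.44 and -0.45, where Spry2 is highest, at 0.39.

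For Met the 5 nearest profiles were those of Eif3a, Ssb, Srsf11, Eif4h and Eif5b, at 0.02 to 0.04 on the same measure. The median gene differed by 0.20, and here too the nearest genes lie below it by choice. Eif3a, a subunit of a translation initiation factor, held 69.4, 57.6 and 57.7 TPM in KO libraries, against 59.5, 59.3 and 45.6 TPM in WT libraries. As in Met, KO library 1 was highest and WT library 3 lowest.

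Around the 10 genes, 9 lists of pathway genes were read from the same fit, and in none did a gene pass the adjusted threshold by limma. Among 22 FGF family genes, not all of which encode receptor ligands, 3 were tested and 16 were under 1 TPM in every library. Of these 16, 4 were at 0 in all 6 libraries, among them Fgf6, a ligand known from muscle. Fgf9 held 2.32, 2.84 and 2.08 TPM in KO libraries, against 1.73, 1.79 and 1.59 TPM in WT libraries (limma adjusted p = 0.397). Fgf11 averaged 2.68 ± 0.391 TPM in KO and 2.16 ± 0.115 TPM in WT, and Fgf13 2.42 ± 0.139 TPM in KO and 2.64 ± 0.528 TPM in WT (SD, n = 3 each).

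Of 12 FGF receptors and co-receptors 7 were tested, Fgfr1 and Fgfr4 among them. Their median difference was 0.12, and 0.03 with median-of-ratios factors. Flrt2, an adhesion protein of a family that binds FGF receptors, held 1.64, 1.19 and 1.49 TPM in KO libraries, against 0.68, 0.94 and 0.70 TPM in WT libraries (limma adjusted p = 0.249). Flrt1 held 0.42, 0.39 and 0.46 TPM in KO libraries, against 1.25, 1.04 and 12.5 TPM in WT libraries, so its mean rests on WT library 3. Nrp1, a neuropilin, averaged 2.80 ± 0.656 TPM in KO and 1.84 ± 0.237 TPM in WT, and the decoy receptor Fgfrl1 1.47 ± 0.309 TPM in KO and 1.24 ± 0.0252 TPM in WT (SD, n = 3 each).

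The heparan sulfate list held the most genes with separated groups. These proteoglycans and enzymes set how FGF and HGF meet their receptors. Of 16 tested genes 10 had all KO libraries above all WT libraries and 0 below, and 6 had an unadjusted limma p under 0.05, all higher. Over all genes tested 13.5% had all KO libraries above all WT libraries, 3.07% had all below, and 7.89% were higher at that unadjusted p. The median difference was 0.24, and 0.11 with median-of-ratios factors. Hs6st2, an enzyme that adds sulfate to heparan sulfate, held 7.94, 7.99 and 9.46 TPM in KO libraries, against 5.85, 4.62 and 5.58 TPM in WT libraries (limma adjusted p = 0.193).

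Among the proteoglycans, the glypican Gpc1 averaged 7.30 ± 1.61 TPM in KO and 4.53 ± 0.737 TPM in WT, and Gpc4 6.64 ± 0.637 TPM in KO and 4.77 ± 0.495 TPM in WT (SD, n = 3 each). The syndecan Sdc3 averaged 2.09 ± 0.386 TPM in KO and 1.36 ± 0.0872 TPM in WT. None of these passed the adjusted limma threshold. Sdc4, a syndecan by which satellite cells are often sorted, was by far the most abundant of the list and its groups overlapped, at 175.3, 221.9 and 156.7 TPM in KO libraries, against 214.0, 266.1 and 179.4 TPM in WT libraries.

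Genes that activate HGF or act with Met gave values in both directions, 5 higher and 2 lower of the 7 tested. That split is near the share over all genes tested, of which 77.6% had a higher value in KO. Plaur, the receptor of the urokinase protease that can activate HGF, held 17.2, 12.3 and 11.5 TPM in KO libraries, against 6.65, 9.14 and 6.40 TPM in WT libraries (limma adjusted p = 0.193). The groups did not overlap.

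Cd44, a co-receptor of Met, averaged 33.2 ± 9.55 TPM in KO and 22.1 ± 3.10 TPM in WT, and Plxnb2, a plexin of the semaphorin receptor family, 5.72 ± 0.898 TPM in KO and 4.42 ± 0.540 TPM in WT (SD, n = 3 each). Both had separated groups and neither passed the adjusted limma threshold. Of the 14 genes of this list 7 were tested, with a median difference of 0.25, and 0.10 with median-of-ratios factors.

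Downstream, 26 of 28 adaptors and RAS to ERK kinases were tested, with a median difference of 0.16, and 0.04 with median-of-ratios factors. Of the 26, 3 had an unadjusted limma p under 0.05, all higher, and 5 had all KO libraries above all WT libraries. These shares are near those over all genes tested, 7.89% and 13.5%. The adaptor Gab2 averaged 1.41 ± 0.136 TPM in KO and 0.853 ± 0.266 TPM in WT, and the phosphatase gene Ptpn11 7.67 ± 0.465 TPM in KO and 6.11 ± 0.113 TPM in WT (SD, n = 3 each). Rras averaged 7.53 ± 1.71 TPM in KO and 5.86 ± 0.335 TPM in WT, with overlapping groups.

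Of 12 genes of the p38 kinase arm 6 were tested, with a median difference of 0.16, and 0.03 with median-of-ratios factors. Map2k3, a kinase that activates p38, held 17.6, 14.9 and 14.7 TPM in KO libraries, against 11.6, 11.4 and 10.4 TPM in WT libraries (limma adjusted p = 0.243). The groups did not overlap. Tab2 averaged 8.42 ± 0.437 TPM in KO and 7.30 ± 0.497 TPM in WT, Map2k4 4.73 ± 0.892 TPM in KO and 3.71 ± 0.713 TPM in WT, and Mapkapk2 12.5 ± 1.79 TPM in KO and 11.2 ± 1.67 TPM in WT (SD, n = 3 each).

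The other feedback inhibitors did not move one way. Of 12 tested genes 7 had a higher and 5 a lower value, where 77.6% of all genes tested had a higher value in KO. The median was 0.10 (-0.01 with median-of-ratios factors), and 0 had an unadjusted limma p under 0.05. Spsb1 averaged 12.7 ± 2.42 TPM in KO and 18.0 ± 6.16 TPM in WT, Socs5 1.58 ± 0.176 TPM in KO and 1.12 ± 0.297 TPM in WT, and Sh2b3 4.36 ± 0.337 TPM in KO and 3.48 ± 0.487 TPM in WT (SD, n = 3 each). Dusp6, a phosphatase of ERK and a common readout of FGF signal, held 3.54, 3.96 and 4.12 TPM in KO libraries, against 3.59, 3.49 and 3.24 TPM in WT libraries. It too was picked out with its values known.

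In a list of genes that ERK can induce or that encode ETS factors, 14 were tested. Their median difference was 0.12, that of all genes, and -0.0030 with median-of-ratios factors. Ets1 held 8.06, 11.6 and 10.6 TPM in KO libraries, against 6.57, 7.20 and 6.66 TPM in WT libraries (limma adjusted p = 0.283), with separated groups. Etv5, an ETS factor induced by FGF, averaged 3.78 ± 0.508 TPM in KO and 3.25 ± 0.101 TPM in WT, and Fosl1 71.8 ± 11.4 TPM in KO and 58.5 ± 8.79 TPM in WT (SD, n = 3 each). Ccnd1, the cyclin that growth factors induce, held 4.04, 4.14 and 9.72 TPM in KO libraries, against 3.67, 1.01 and 4.65 TPM in WT libraries, with overlap.

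**Figure D4:**
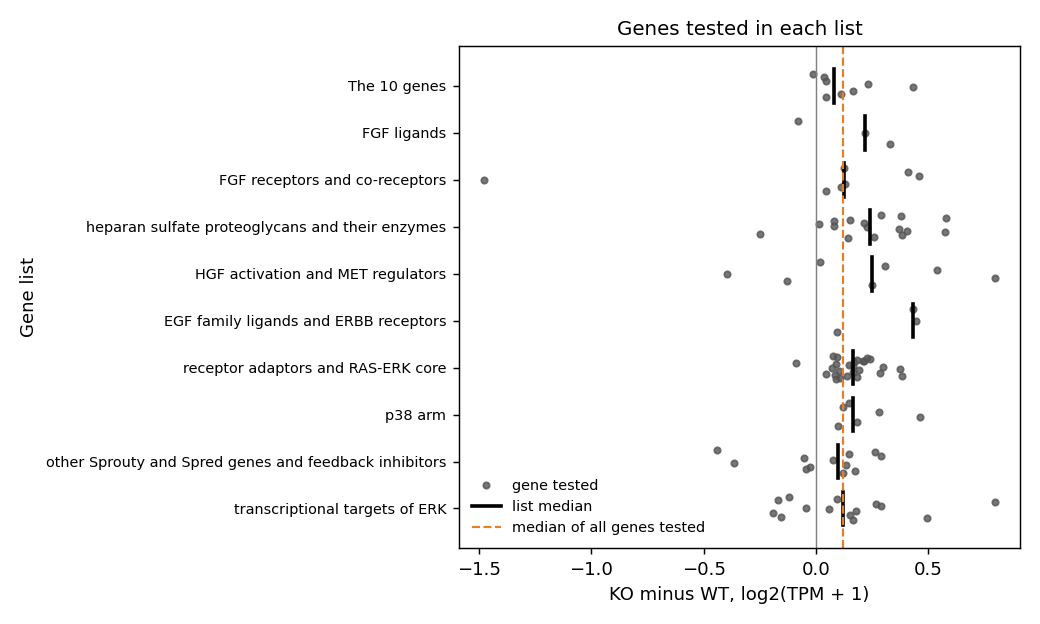
Difference KO minus WT in log2(TPM + 1) of each tested gene (grey points) in the 10 genes and the 9 pathway lists, with list medians (black bars) and the median of all genes tested (dashed line, 0.12). The medians run from 0.08 for the 10 genes to 0.43 for the 3 EGF family genes, and Flrt1 stands at -1.48. The EGF family median is the value of Egfr, itself 1 of the 10 genes.

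The Egfr difference was above 0 under all 15 settings and libraries left out that were fitted, between 0.26 and 0.54, with limma adjusted p-values between 0.0761 and 0.863. The value nearest the threshold came with protein-coding genes rescaled to a common total, where the median of all genes was 0.18. The Spry1 difference lay between 0.02 and 0.51 under the same settings.

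**Figure D5:**
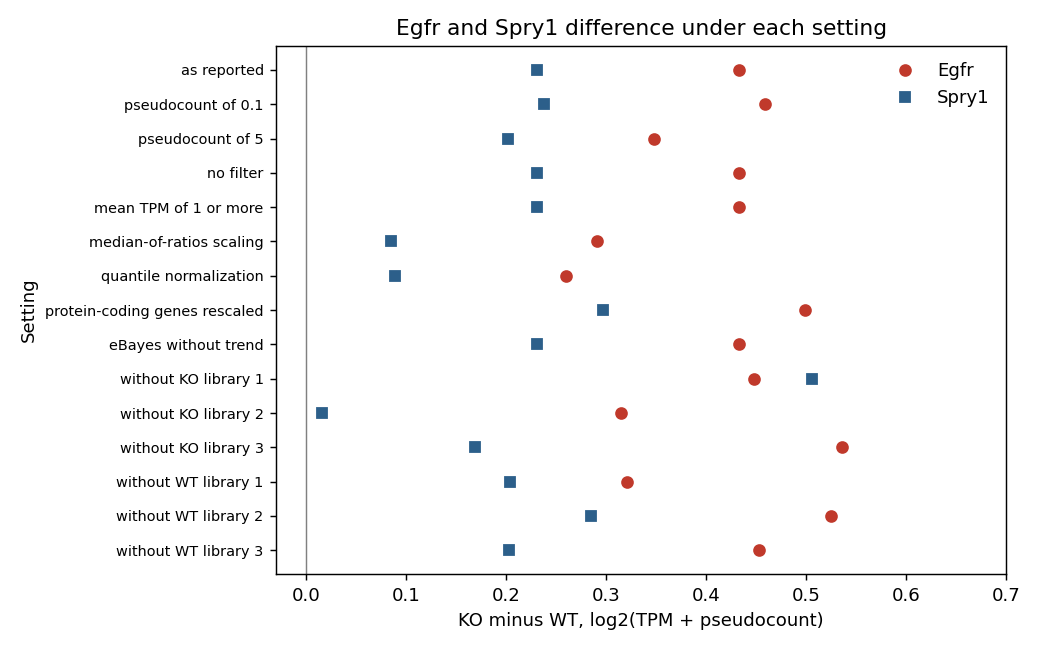
Difference KO minus WT of Egfr (red circles) and Spry1 (blue squares) on the log2(TPM + pseudocount) scale, with 1 setting or left-out library per line. Egfr stays between 0.26 and 0.54, and Spry1 spans 0.02 without KO library 2 to 0.51 without KO library 1.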

How the data were processed

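The authors deposited TPM per gene symbol for 6 libraries, 1 column each, with 24980 symbols. The tools kallisto, FastQC, Trimmomatic (version 0.33) and CASAVA, and mm10 and GRCm38 as builds, come from the submitters' processing notes, which as used here give them no role. The annotation, the sum over transcripts and strandedness are not given in the sources used here. TPM keeps no depth, so no counting interval is given. The 8971 genes that reached 1 TPM in 3 or more libraries entered a limma fit (version 3.58.1, R 4.3.3) of log2(TPM + 1) (eBayes with trend, two-sided, Benjamini-Hochberg over all genes tested, threshold 0.05), and the procedure was tested on simulated data. The members and lists were chosen with earlier results of these data known. Named were the 10 genes, Esr1, up to 4 tested genes with the smallest p of each pathway list, and the 5 nearest profiles to Spry1 and Met. Some genes that this rule names are not reported here. Genes overlapping the 10, marker genes and genes given with low or high levels in their list were named beyond that rule, after their values were seen. Library numbers follow the order of the samples and pair nothing. Alternatives were pseudocounts of 0.1 and 5, other filters, median-of-ratios, quantile and protein-coding scaling (RefSeq biotype), eBayes without trend, each library left out, and within-library ratios added later. Coordinates are 1-based GENCODE vM21; promoters are RefSeq, matched by symbol. Figures used matplotlib 3.10.9 in Python 3.11.15.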

Additional observations from a re-analysis of the deposited data

How the results depend on the processing

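No member was called by limma under any of the 14 alternatives. The unadjusted p of Egfr, 0.032 as reported, was 0.064 with median-of-ratios factors, 0.092 after quantile normalization, 0.0026 with protein-coding genes rescaled, and between 0.021 and 0.133 with a library left out. Over all genes, 3 were called higher and 2 lower as reported. The higher count was 0 with a pseudocount of 0.1, with no filter and with a mean TPM of 1 or more, and 1 under median-of-ratios scaling or quantile normalization. The lower count was 0 with a pseudocount of 5, with no filter, with a mean TPM of 1 or more and under quantile normalization. With protein-coding genes rescaled, 85 were higher and 70 lower among 8029 genes. With a library left out, between 0 and 4 were higher and between 0 and 2 lower. The cause was not tested.

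Small differences changed sign. Under median-of-ratios scaling Fgfr1 was at -0.10, Fgfr4 at -0.037, Spry2 at -0.10 and Spry4 at -0.093. Under quantile normalization Fgfr1 was at -0.054, Fgfr4 at -0.022, Spry2 at -0.12 and Spry4 at -0.12. Spred1 was at 0.053 with protein-coding genes rescaled. With a library left out Fgfr1 lay between -0.086 and 0.16, Spry2 between -0.14 and 0.17, Spry4 between -0.065 and 0.12 and Spred1 between -0.10 and 0.071. Met, Egfr and Spry1 kept a positive sign under all 14. No paired analysis was possible because the labels give each library a number of its own, shared with no library of the other group. The depth is unknown, and each difference is known only to within the interval given.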
